A study of Bos taurus with 17 samples.

Results

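The cathepsins described here are the lysosomal proteases that a bovine Agilent 1-colour array measured in cow cumulus cells, the somatic cells around the oocyte. The members were fixed by name and not by a cut on their values, but with earlier results of these data known: CTSA, CTSB, CTSC, CTSD, CTSF, CTSH, CTSK, CTSL2, CTSS and CTSZ. Of the 21475 non-control probes, which carry 19801 gene names, 11 had one of these 10 symbols or a description of a cathepsin with that letter, and 1 more, for CTSA, was matched through its RefSeq accession. These 12 probes stand for 11 genes in the current RefSeq list. All 12 were among the 13865 valid probes, and all 12 were well above background on all 17 arrays, so no member was lost to the filter on dim probes.

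Cathepsins are made as inactive proenzymes, carried to the lysosome by mannose 6-phosphate receptors and activated in its acid lumen, which the vacuolar proton pump maintains. Cysteine, aspartic and serine proteases all bear the name, and they differ in whether they cut within a protein or trim its ends. In the ovary, lysosomal and secreted cathepsins are known for their part in protein turnover and in the remodelling of the follicle.

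NC1 cells (6 samples) were taken from prepubertal calves, 3 to 6 months old, whose follicles measured 3 to 6 mm, around immature prophase I oocytes labelled as developmentally incompetent. C1 cells (6 samples) came from adult cows of different ages, around immature prophase I oocytes labelled as competent and enclosed in compact cumulus, and their follicles were likewise aspirated post mortem. C2 cells (5 samples) came from follicles over 8 mm of non-lactating Holstein cows aged 3 to 5 years, given progestagen, an FSH/LH preparation and prostaglandin F2α and collected by ovum pick up 60 h later, with an expanded cumulus around metaphase II oocytes. Each sample was 1 animal, so NC1 and C1 differed in age class as well as stage, and C2 differed from C1 in hormone treatment, follicle size and the way of collection too. The effects of these factors and of the stage cannot be told apart.

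Between 66.2% and 82.8% of the probes of an array were well above background. The 6 slides, which held the 17 arrays, were read in 2 scan days, and both days included all 3 stages. C2 replicates 1, 2 and 5 were read on the first day and only C2 replicates 3 and 4 on the second. Among the C2 arrays, replicates 1 and 5 lay close to each other, as did replicates 3 and 4 (SD of the log2 difference over the valid probes 0.44 and 0.51), while the other 8 pairs of C2 arrays differed by 1.05 to 1.27. These 2 close pairs were read on different scan days, so scan day cannot be told apart from the difference between them. Pairs of arrays within NC1 differed by 0.43 to 0.69 and those within C1 by 0.45 to 0.76. Of the cumulus and granulosa markers, 5 of 9 tested were lower in C2 than in C1 (55.6%, against 12.8% of all valid probes). FSHR, the FSH receptor, was lower by 3.55 on the log2 scale. All 4 measured genes of cumulus expansion were higher (against 15.3% of all valid probes), with TNFAIP6, a hyaluronan-binding protein, 6.63 above C1. The labelled tissue, ovarian follicles, is broader than the cumulus cells that the methods describe, and no granulosa marker was below background on all arrays of a stage.

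All levels below are log2 signals relative to the median probe of the same array, so a difference of 1 is a doubling. They compare stages for 1 probe and do not rank one gene against another. Stages were compared with limma over all valid probes, and a gene was called when its Benjamini-Hochberg adjusted p was under 0.01. RNA here is from whole samples, in which fewer cells of a type and less RNA per cell cannot be told apart.

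Of the 11 genes, 5 were called between C2 and C1, where 28.1% of all valid probes were called. CTSS, CTSK and CTSB rose (15.3% of probes were called higher) and CTSF and CTSL fell (12.8% were called lower). Between C2 and NC1 the same 3 rises were called and no fall, against 28.1% of all probes called, with 15.5% higher. No cathepsin was called between C1 and NC1, where limma called 0.0577% of probes (0.00721% higher and 0.0505% lower). At an unadjusted limma p under 0.05, CTSS alone passed in that comparison, and 1365 of all valid probes did. This fit shares 1 spread over the 3 stages, and the median SD of all valid probes was 0.335 in NC1, 0.329 in C1 and 0.498 in C2. The exact permutation test, which uses only the C1 and NC1 arrays, gave unadjusted p of 0.0108 for CTSS, 0.0130 for CTSB and 0.0476 for CTSK. Its share over all probes is not given here. All C2 arrays lay above all C1 arrays for 3 genes and below them for none, against 10.7% and 11% of all valid probes (21.6% in either direction). Relative to NC1 these counts were 2 and 0, against 10.6% and 10.3% (20.9%). C1 was separated from NC1 for no gene in either direction, against 0.887% and 1.21% of probes (2.1%). The F test over the 3 stages called 4 genes, CTSS, CTSK, CTSB and CTSF, against 28.6% of all probes. The median difference between C2 and C1 was 0.52 over the 11 genes and 0.02 over all valid probes, and between C2 and NC1 it was 0.20 and 0.11.

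**Figure D1:**
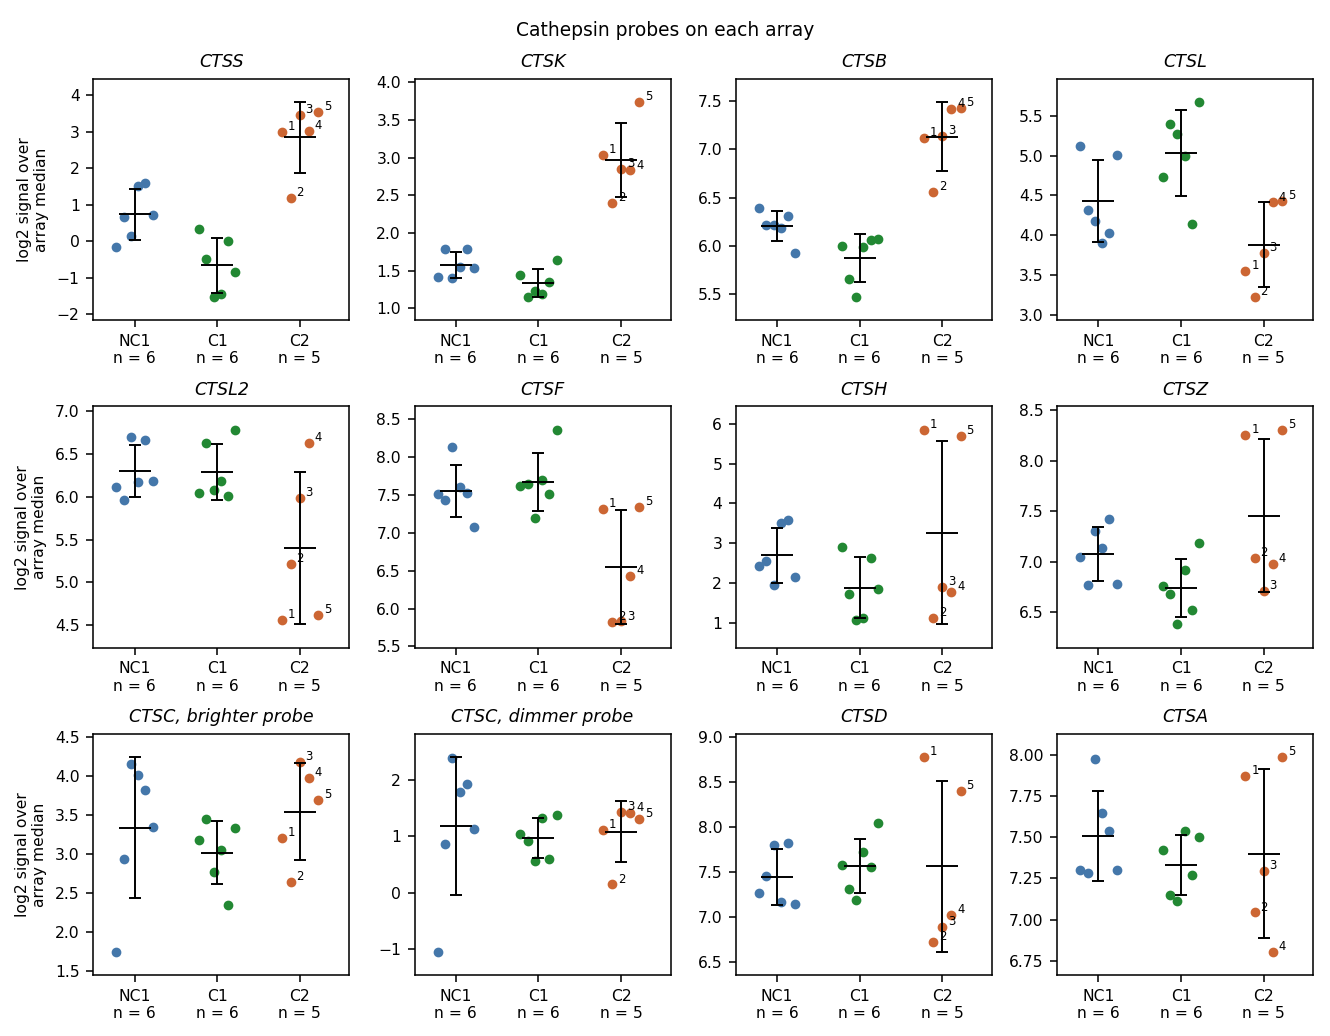
Log2 signal over the array median (y axis, scaled for each panel) of the 12 cathepsin probes on each array of NC1, C1 and C2 (x axis), with stage means and SD as black bars and the replicate number beside each C2 point. The C2 points of CTSK and CTSB lie above all NC1 and C1 points, whereas those of CTSH, CTSZ and CTSD are spread, with replicates 1 and 5 on top.

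CTSS, the endopeptidase that trims the invariant chain of MHC class II molecules and stays active at neutral pH, had the largest difference between C2 and C1 of the 11 genes. Its C2 levels were 3.00, 1.18, 3.47, 3.03 and 3.55 in replicates 1 to 5. In C1 it ran from -1.52 through a median of -0.66 to 0.35, and in NC1 from -0.15 through 0.69 to 1.59. All 5 C2 arrays lay above all 6 C1 arrays, and 4 of 5 lay above all NC1 arrays. Replicate 2 was the exception and fell within the NC1 range. CTSS was 11.3-fold higher in C2 than in C1 (log2 difference 3.50, SE 0.44, limma adjusted p = 5.425e-06; exact permutation test, 2-sided, p = 0.00216, the smallest it can give). Against NC1 the difference was 2.10 (SE 0.44, limma adjusted p = 0.000984). C1 lay 1.40 below NC1, with a 95% interval of -2.29 to -0.52 and a limma adjusted p of 0.186.

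The rise of CTSS over C1 was 2.73 within the first scan day and 4.397 within the second, and it was positive on all 5 slides that held both stages (1.16 to 4.90). Without C2 replicate 2 it was 3.91 against C1 and 2.51 against NC1. With the arrays of the first scan day alone, the adjusted p was 0.0126 against C1 and 0.0586 against NC1.

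CTSK, a collagen-cutting endopeptidase best known from osteoclasts, had C2 levels of 3.04, 2.39, 2.85, 2.83 and 3.74. Its C1 levels ran from 1.15 (median 1.29) to 1.64 and its NC1 levels from 1.40 (median 1.54) to 1.79. The C2 arrays stood clear of both other stages, and C1 and NC1 overlapped. CTSK was 3.11-fold higher in C2 than in C1 (log2 difference 1.64, SE 0.20, limma adjusted p = 3.359e-06) and 2.63-fold higher than in NC1 (1.39, SE 0.20, limma adjusted p = 2.095e-05). The values within the scan days were nearly equal, 1.58 and 1.65 against C1. In the RefSeq list of cattle genes CTSK and CTSS lie beside each other, with LOC112445950 as the only protein-coding gene between them.

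CTSB, a broad endopeptidase that also removes dipeptides from carboxyl ends, had C2 levels of 7.11, 6.55, 7.14, 7.42 and 7.43. Its C1 levels ran from 5.47 (median 6.00) to 6.07 and its NC1 levels from 5.93 (median 6.21) to 6.39. Here too the C2 arrays did not overlap with either stage. CTSB was 2.39-fold higher in C2 than in C1 (log2 difference 1.25, SE 0.18, limma adjusted p = 2.227e-05) and 1.90-fold higher than in NC1 (0.92, SE 0.18, limma adjusted p = 0.000489). Within the scan days the difference from C1 was 0.99 and 1.57, and on the first day alone its adjusted p was 0.0262. C1 was below NC1 on all 6 slides, by 0.15 to 0.71, although the comparison was not called (log2 difference -0.33, 95% interval -0.69 to 0.03).

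The probes that gave these 3 rises are oligonucleotides of 60 bases, of which 30 are shown so that the measured sequence can be identified. Capitals mark AATAAA, the usual polyadenylation signal, searched on the printed strand only, and the CTSS probe does not hold it. It stood in 3 of the 12 cathepsin probes and in 14.3% of the 15256 probes with a sequence in the deposited table.
CTSS, bases 31 to 60 of A_73_113739: ccttttgggggcaaaaagtcaacctgaata
CTSK, bases 1 to 30 of A_73_110953: tAATAAAtagctgtttagtaaacattcatt
CTSB, bases 31 to 60 of A_73_115425: aggaatggctgccAATAAAaagcctctcct

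The array held 2 probes for cathepsin L-type endopeptidases. The probe that the array files name CTSL carries an accession that RefSeq now lists as CTSV, with CTSL2 among its older names, and it is called CTSL2 here. The other, named LOC515200 in the files, is the current CTSL. Their sequences shared 25 of 30 bases in the best aligned stretch, against 12 to 18 of 30 for the other 65 pairs of cathepsin probes. That stretch is printed below with the bases that differ in capitals. Whether either probe also bound the other transcript was not tested.
CTSL2, bases 11 to 40 of A_73_109637: aagttgtgatTtgaatGctgtgacGAtttT
CTSL, bases 1 to 30 of A_73_113548: aagttgtgatCtgaatTctgtgacCTtttA

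CTSL had C2 levels of 3.55, 3.22, 3.77, 4.41 and 4.43. In C1 it ran from 4.14 (median 5.13) to 5.67 and in NC1 from 3.91 (median 4.25) to 5.12. C2 replicates 1, 2 and 3 lay below all C1 arrays, and replicates 4 and 5 did not. CTSL fell by 1.16 on the log2 scale from C1 to C2 (SE 0.30, limma adjusted p = 0.00534; exact permutation test, p = 0.0130). Its difference from NC1 was -0.55, with a 95% interval of -1.19 to 0.09. The call was lost (adjusted p 0.01001 to 0.0155) when any one of C1 replicates 2, 3, 4 or 6 or C2 replicates 1, 2 or 3 was left out, and also with slide as a block (-1.06, adjusted p = 0.01003).

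CTSL2 had C2 levels of 4.57, 5.22, 5.98, 6.62 and 4.62, with replicates 1 and 5 lowest and replicate 4 inside the range of C1 (6.01 to 6.78). NC1 ran from 5.96 to 6.70. The difference of C2 from C1 was -0.89 (95% interval -1.55 to -0.23, limma adjusted p = 0.0296) and that from NC1 was -0.90 (-1.56 to -0.24, adjusted p = 0.0288), so neither was called. Within the first scan day it was -1.48 against C1, and within the second 0.0045. Without C2 replicate 4 it was -1.20 against C1 and -1.20 against NC1, and both passed the threshold. Both were also called after 75th percentile scaling (adjusted p = 0.00558 and 0.00465) and after quantile normalization (0.00328 and 0.00228).

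CTSF, a cysteine endopeptidase whose long propeptide resembles a cystatin, had C2 levels of 7.32, 5.82, 5.83, 6.43 and 7.34. C1 ran from 7.19 (median 7.63) to 8.36 and NC1 from 7.08 (median 7.52) to 8.14. C2 replicates 2, 3 and 4 lay below all arrays of the other stages, and replicates 1 and 5 lay inside their range. CTSF fell by 1.13 from C1 to C2 (SE 0.29, limma adjusted p = 0.00496; exact permutation test, p = 0.00649). Against NC1 the difference was -1.004 (95% interval -1.62 to -0.39), just short of the threshold with an adjusted p of 0.0105. The call against C1 was lost (adjusted p 0.0101 to 0.0178) without C1 replicate 4 or 6 or C2 replicate 2, 3 or 4. That against NC1 was gained without NC1 replicate 6, C1 replicate 6 or C2 replicate 1 or 5.

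**Figure D2:**
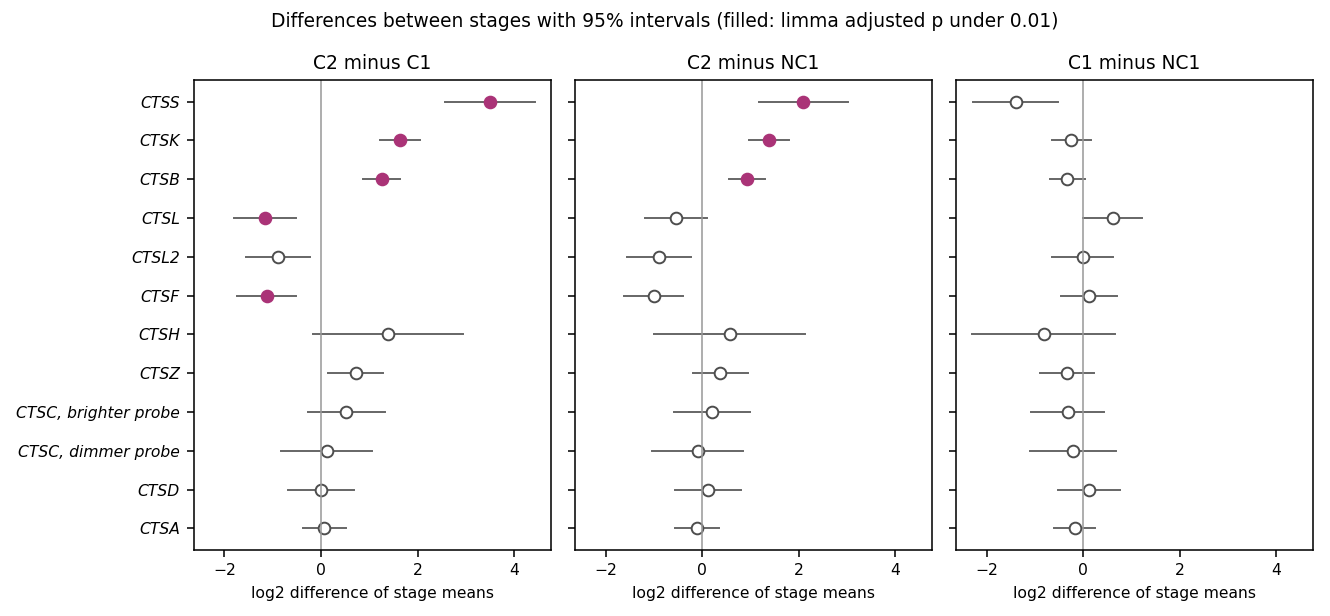
Log2 difference of stage means (x axis, C2 minus C1, C2 minus NC1 and C1 minus NC1) for each cathepsin probe (y axis), with 95% intervals from limma as lines and filled points where the adjusted p was under 0.01. CTSS, CTSK and CTSB lie to the right in both comparisons with C2, and no point is filled between C1 and NC1.

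CTSH, CTSZ and CTSC were not called in any comparison. CTSH, an aminopeptidase, had C2 levels of 5.85, 1.12, 1.90, 1.76 and 5.70, so that replicates 1 and 5 stood above all NC1 (1.95 to 3.59) and C1 (1.06 to 2.90) arrays while the other 3 C2 arrays stood below the lowest NC1 array and within the C1 range. Its SD in C2 was 2.31, against 0.69 in NC1 and 0.76 in C1, and the median SD of all valid probes in C2 was 0.50. The difference from C1 was 1.38 with a 95% interval of -0.17 to 2.94, and that from NC1 was 0.57 (-0.99 to 2.13).

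CTSZ, a carboxypeptidase, showed a like arrangement at a smaller range. Its C2 levels were 8.25, 7.04, 6.71, 6.98 and 8.30, with replicates 1 and 5 above all other arrays (NC1 6.77 to 7.42, C1 6.38 to 7.19). The difference from C1 was 0.72 (95% interval 0.14 to 1.29, limma adjusted p = 0.0443) and that from NC1 was 0.38 (-0.20 to 0.96).

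CTSC, the dipeptidyl peptidase that activates serine proteases of immune cells, had 2 probes. On the brighter, the C2 levels were 3.20, 2.64, 4.18, 3.98 and 3.70, against 2.34 to 3.45 in C1 and 1.74 to 4.16 in NC1. C2 minus C1 was 0.52 (95% interval -0.27 to 1.32) on the brighter probe and 0.11 (-0.83 to 1.05) on the dimmer. NC1 replicate 1 was the lowest of the 17 arrays on both, at 1.74 and -1.05.

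CTSD, the main aspartic protease of the lysosome, had C2 levels of 8.77, 6.73, 6.89, 7.03 and 8.40. Replicates 1 and 5 lay above all NC1 (7.15 to 7.83) and C1 (7.19 to 8.05) arrays, and the other 3 lay below all of them. The stage means were therefore close, with a difference from C1 of 0.00 (-0.0047, 95% interval -0.68 to 0.67).

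CTSA, a serine carboxypeptidase that also protects lysosomal galactosidase and sialidase, was found only through its accession, since the array files name it MGC128937. Its C2 levels were 7.87, 7.04, 7.30, 6.80 and 7.98, against 7.11 to 7.54 in C1 and 7.28 to 7.97 in NC1. C2 minus C1 was 0.07 (95% interval -0.38 to 0.51). Intervals of these genes that include 0 do not show that their levels were alike.

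**Figure D3:**
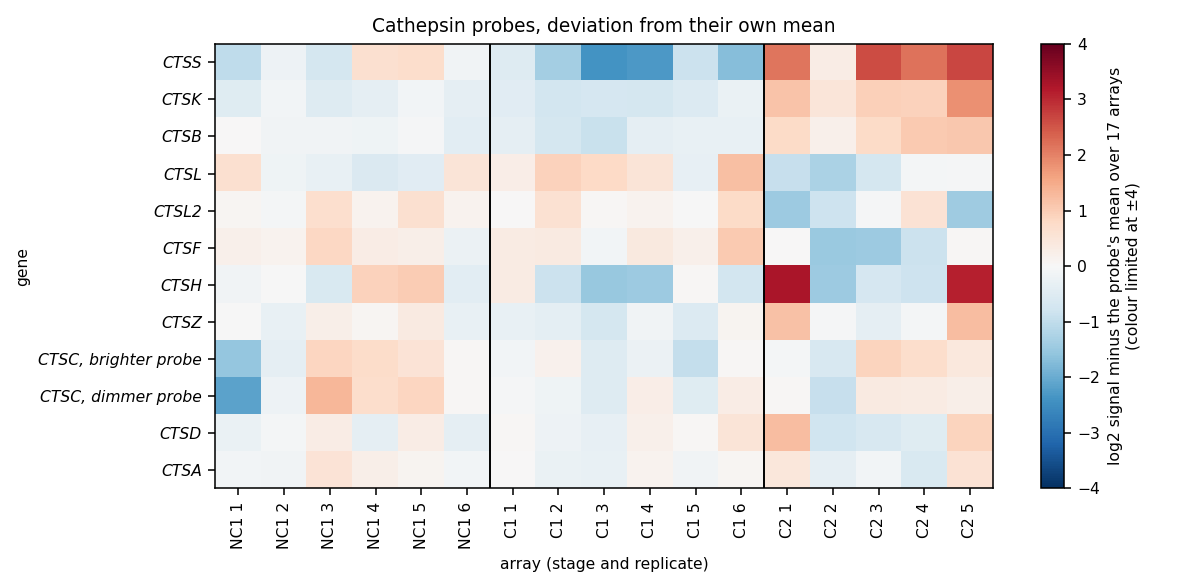
Deviation of each cathepsin probe (rows) on each array (columns) from its own mean over the 17 arrays, in log2 units, with red above and blue below the mean and vertical lines between stages. C2 replicates 1 and 5 are red for CTSH, CTSZ, CTSD and CTSA and blue for CTSL2, while CTSK and CTSB are red on all 5 C2 arrays.

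Among other cathepsins on the array, CTSO, a cysteine protease, fell by 2.42 from C1 to C2 (SE 0.27, limma adjusted p = 1.466e-06) and by 2.59 from NC1. Its C2 levels ran from -3.49 to -1.85, all below those of C1 (-0.80 to 0.63). CTSW, a cathepsin of cytotoxic lymphocytes, was well above background on 2 of 5 C2 arrays and on none of NC1 or C1, and was not tested.

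CTSS rose from C1 to C2 together with markers of leukocytes and macrophages. Of 14 tested markers, 7 were called higher in C2 than in C1 (50%, against 15.3% of all valid probes) and none lower. The median difference was 1.87 over the list and 0.02 over all valid probes. The largest rises were S100A8, a calcium-binding protein of neutrophils (4.67), CD53, a leukocyte tetraspanin (3.35), and LCP1, an actin-bundling protein of leukocytes (3.16). ITGB2 (-0.32) and CD2 (-0.19) differed from C1 in the other direction and were not called. Against NC1, 4 of 14 were called higher (28.6%, against 15.5% of all valid probes), with a median difference of 0.98 over the list. CD68, CD163 and CSF1R differed from NC1 by 0.0087, 0.0879 and -0.47. Between C1 and NC1 none of the 14 was called. The mean of NC1 was above that of C1 for 9 of them, and the median of C1 minus NC1 was -0.65. The summed linear signal of all 19 markers on the array, relative to the array median, ran from 27.8 to 53.3 in NC1, 23.2 to 40.7 in C1 and 21.5 to 111 in C2. ITGAM, CD3E and S100A9 were not well above background on any NC1 or C1 array.

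C2 replicate 2, the array with the lowest CTSS of C2, had the summed marker signal of 21.5 and was the lowest C2 array for 13 of the 14 tested markers. On it, CD68, CSF1R and AIF1, markers of macrophages, and ITGB2 were at their lowest of the 17 arrays. On the same array CTSS was 1.18, above all C1 arrays, CTSK was 2.39 and CTSB was 6.55, and the last 2 were above all NC1 and C1 arrays. C2 replicates 1 and 5, which had the highest CTSH, were both above the other C2 arrays for 8 of the 14 markers, and S100A8 and CD14 were lower on them than on replicates 3 and 4. Markers of other cells were split between these arrays too. TAGLN was 5.18 and 4.77 on replicates 1 and 5 (other C2 arrays -0.37 to 0.36), ACTA2 4.74 and 3.29 (1.05 to 1.83) and VWF 2.46 and 1.94 (-3.60 to -2.94). CYP19A1 was lower on them, at -3.38 and -3.74 (-1.15 to 2.43), as were KDR and, from the theca and stroma list, LUM and COL1A1. Other markers of that list went the other way. COL3A1 was 4.28 and 3.06 on replicates 1 and 5 (-2.93 to 0.82). COL1A2, DCN, PDGFRA, MYH11 and CYP17A1 were also higher on these replicates than on the other C2 arrays, and INSL3 was not split. The part of leukocytes or of other cells in the levels of CTSS and CTSH was not tested.

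**Figure D4:**
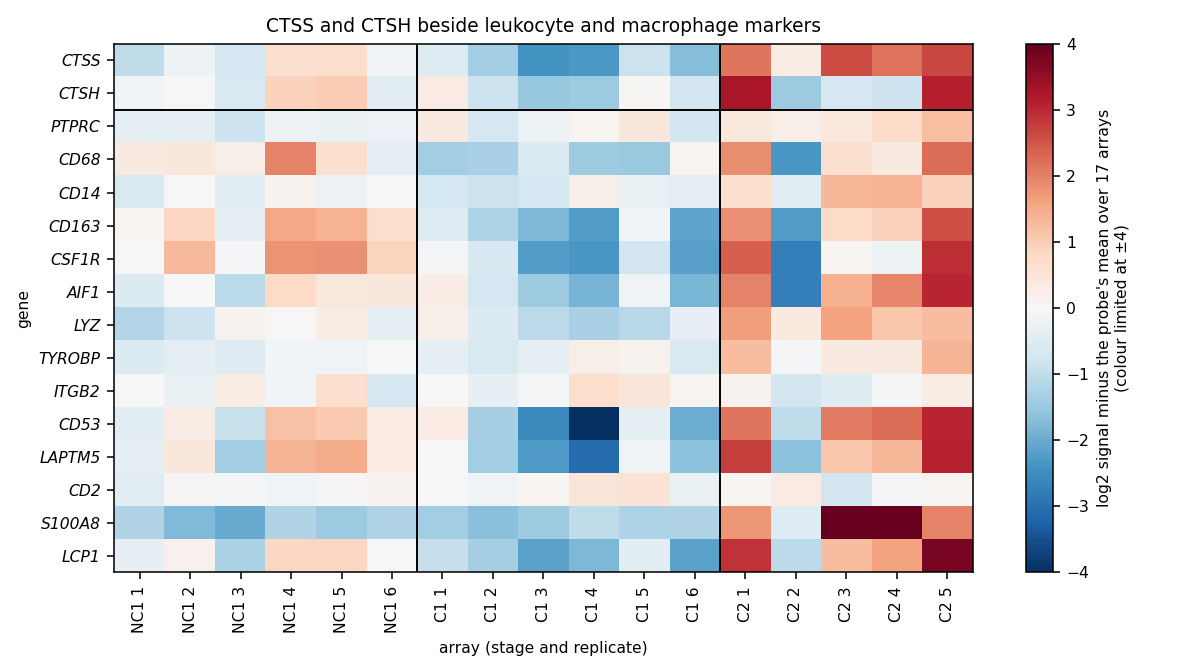
Deviation of CTSS, CTSH and the 14 tested leukocyte and macrophage markers (rows) on each array (columns) from their own mean over the 17 arrays, in log2 units limited at 4 either way. CTSS, CD53, LAPTM5 and LCP1 are mostly red in C2 and blue in C1, and C2 replicate 2 is blue for most markers.

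Among markers of other cells, calls between C2 and C1 are given beside the 15.3% of all valid probes called higher and the 12.8% called lower. Of 3 tested red blood cell markers, HBA, an alpha globin, was 4.01 lower in C2 than in C1 (33.3%). HBG, another globin, differed from C1 by 0.46 and AHSP by -0.32, and neither was called. The summed signal of 6 markers was 73.5 to 259 in C1 and 3.63 to 52.1 in C2. HBA gave the largest signal in that sum on every array. The mean log2 level of the 6 markers had a median of -1.70 in C1 and -1.99 in C2. Of 6 endothelial markers, KDR, a VEGF receptor, was higher (16.7%, near the share of all probes), and CDH5 was not well above background on any array. Of 10 theca and stroma markers, LUM and COL1A1, genes of the extracellular matrix, were higher (20%) and MYH11, a smooth muscle myosin, was lower (10%). These shares too were near those of all probes. Of 11 oocyte markers, 7 were not tested because the filter asks for presence in every stage, and these were well above background on 3 to 6 of the C1 arrays and on 0 or 1 of the C2 arrays. OOSP2, an oocyte-secreted protein, was well above background on all 6 C1 arrays and on 1 of 5 C2 arrays. Of the 4 tested, none passed the threshold between C2 and C1 in limma (median -0.77). Against NC1, 3 were lower in C2 (75%, against 12.6% of all valid probes).

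The partners of cathepsins in the lysosome were counted from lists of known genes, without the members themselves. Of 7 other lysosomal proteases tested, 3 fell from C1 to C2 (42.9%, against 12.8% of all valid probes) and none rose (median difference -0.97): CTSO, CPQ, a carboxypeptidase (-2.07), and PRCP, a prolyl carboxypeptidase (-1.56). The same 3 were lower than in NC1. Of 3 tested inhibitors, CST3, CST6 and KNG1, none was called (median -0.12). CST3, cystatin C, differed from C1 by -0.27 (SE 0.26).

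Of 13 genes for sorting to the lysosome and its transcription factors, 2 rose and 1 fell (median 0.03), shares of 15.4% and 7.69% that were at or below those of all valid probes. M6PR, the cation-dependent mannose 6-phosphate receptor, rose by 1.22, GGA2, an adaptor for that receptor, rose by 0.81, and SCARB2, the receptor that carries glucocerebrosidase, fell by 1.03. IGF2R, the other mannose 6-phosphate receptor, had a difference of 0.55 (SE 0.22, limma adjusted p = 0.0547).

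Of 19 subunits of the vacuolar proton pump, 4 rose from C1 to C2 (21.1%, against 15.3% of all valid probes) and none fell (median 0.50), among them ATP6V1C1 (1.80), ATP6V0D1 (0.96) and ATP6V1G1 (0.81). Against NC1, 7 rose (36.8%, against 15.5% of all valid probes; median 0.59). Of 11 genes of the lysosomal membrane, 3 rose (27.3%) and none fell (median 0.17): SLC17A5, the sialic acid exporter (2.57), OSTM1, a subunit of a chloride-proton exchanger (1.43), and the tetraspanin CD63 (1.05).

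Of 33 other lysosomal hydrolases and cofactors, 5 rose and 6 fell (median 0.12), shares of 15.2% and 18.2% that were near the 15.3% and 12.8% of all valid probes. The largest rises were GALC, a galactosylceramidase (2.75), GUSB, a glucuronidase (2.52), and ASAH1, an acid ceramidase (1.48). The largest falls were PPT1, a thioesterase (-1.87), GM2A, the activator of ganglioside breakdown (-1.69), and NAGLU, which degrades heparan sulfate (-1.32). Of 15 MHC class II genes on the array, 6 were tested. The others, CD74 among them, were not present on enough arrays of every stage. Of the 6, which belong to the pathway in which CTSS acts, limma called none against C1 (median 0.32). Against NC1 it called 1, BOLA-DQA2, higher (16.7%, near the 15.5% of all valid probes). BOLA-DRA differed from C1 by 2.16 (SE 0.73, adjusted p = 0.0243). BOLA-DQA2 differed from C1 by more, and was not called there either.

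**Figure D5:**
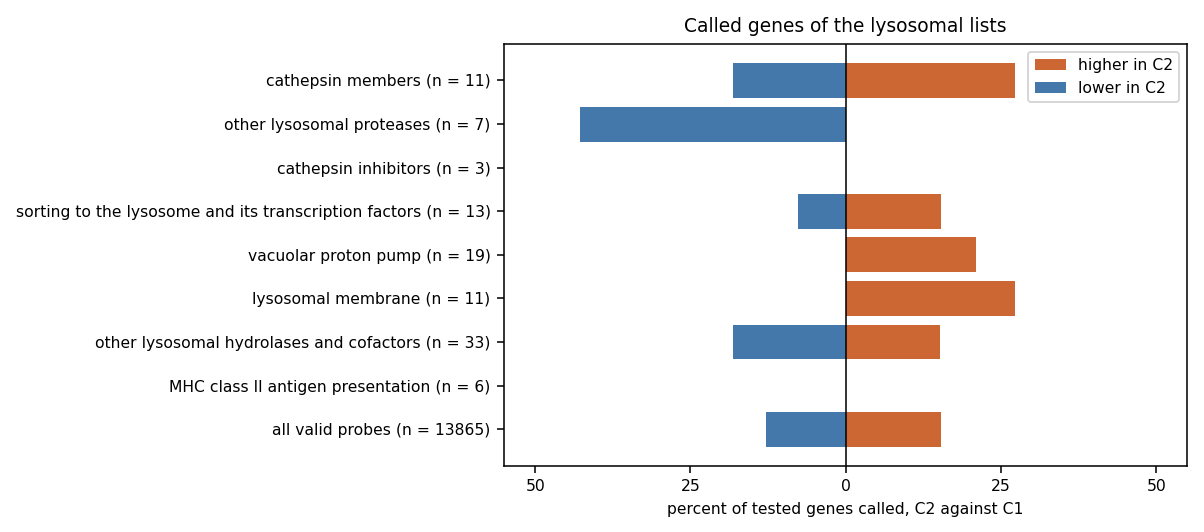
Percent of tested genes called higher (right) or lower (left) in C2 than in C1 (x axis) for the cathepsins, 7 lists of lysosomal and MHC class II genes and all valid probes (y axis, number tested in brackets). The cathepsins hold both directions, the proton pump and the membrane list only rises, and the other proteases only falls.

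The named genes whose profiles over the 17 arrays were nearest, by the root mean square difference of profiles centred on their mean, were ranked among 11515 probes. For CTSS they were SH2B3 (0.412), ARHGAP30 (0.498) and ADCY7 (0.512). For CTSK they were TWF1 (0.216), SLC66A2 (0.217) and the gene described as C2orf34 (0.231). For CTSB they were ABCF1 (0.205), UBA1 (0.211) and the gene described as CHP (0.213).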

How the data were processed

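RNA of 17 samples was hybridised to 1 bovine array each. The authors deposited spot intensity values from Agilent Feature Extraction 10.5.1.1, background-subtracted and not scaled between arrays, and a table of log2 values scaled by each array's median. Of that table's values, 99.9% lay within 0.01 of those computed here after centring, and it served as an alternative. No genome build is named in the sources used here.

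Log2 signals were averaged over a probe's spots without non-uniform and outlying spots, and each array's median was subtracted. A probe was present on an array with at least 50% of its spots well above background, uniform and unsaturated, and valid when present on 80% or more of the arrays in every stage. Stages were compared in 1 fit with limma 3.58.1 in R 4.3.3, with a threshold of 0.01 on the adjusted p. Exact permutation tests enumerated the absolute difference of stage means, with a smallest p of 0.00216. Intervals are 95% intervals. The fit was tested on simulated data. A gene with several probes was given by its brightest valid probe. Symbols were matched to RefSeq (ARS-UCD2.0) by accession, identifier or description. Named were all members, the other cathepsins CTSO and CTSW, up to 3 rises and 3 falls against C1 per list, and the 3 nearest profiles of CTSS, CTSK and CTSB. Probes described as cathepsin G were on the array too and are not described here. Other genes with values beside a result (FSHR, TNFAIP6, IGF2R, CST3, BOLA-DRA, OOSP2, CD14 and further markers and list genes) were chosen after their values were seen. The members and lists were chosen with earlier results of these data known. The number of arrays limits the precision. Alternatives covered scaling, background, filters, weights, blocks, scan day and single arrays. Tables were computed with pandas 2.3.3, scipy 1.17.1 and numpy 2.4.6 under Python 3.11.15.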

Additional observations from a re-analysis of the deposited data

Results flagged for a closer look

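In 2 of 36 sets of arrays (12 probes in 3 stages), 1 array lay far from the others of its stage by Dixon's criterion, and chance alone gives about 5% of sets. Both were C2 replicate 2. CTSS was 1.18 on it and 3.00 on the nearest other C2 array, a gap of 0.766 of the range of the stage. The dimmer CTSC probe was 0.15 on it and 1.12 on the nearest other C2 array, a gap of 0.756 of the range. The cause was not tested.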

How the results depend on the processing

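The directions of CTSS, CTSK, CTSB, CTSF and CTSL between C2 and C1 held under the 23 alternatives that could move these differences, and 10 others leave them as they are by construction. Of all 33, CTSK passed the threshold under 32 and CTSS and CTSB under 31. CTSF passed under 23 and CTSL under 18. With array weights CTSZ (1.11, adjusted p = 0.00205) and CTSL2 (-1.09, adjusted p = 0.00365) passed too, CTSL2 also against NC1 (-1.11, adjusted p = 0.00354), and CTSF and CTSL did not (adjusted p = 0.0490 and 0.0304), but the estimation of these weights stopped before it converged. The exact permutation test over all valid probes, added after seeing the data, could not reach the threshold (lowest adjusted p 0.0114) and called 0 cathepsins and 0 probes in each comparison between stages, so it says nothing on stability.

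Of the cathepsins called between C2 and C1 (5), 3 were left with only the 2 stages compared, without CTSF and CTSL. With 75th percentile scaling and with quantile normalization, 5 cathepsins instead of 3 were called between C2 and NC1, CTSF and CTSL2 being added; these scalings moved the median of all probes between C2 and NC1 from 0.11 to -0.04 and 0.00 (-0.0024). Of the probes called between C2 and NC1, 55.3% were higher in the reported fit, 67.2% with normexp, 45.5% with 75th percentile scaling and 46.7% with quantile normalization. Between C2 and C1 these shares were 54.4%, 49.8%, 45.7% and 47.3%. With the first scan day alone, added after seeing the data, the cathepsins called were 2 between C2 and C1 (CTSK, and CTSL2, which was not called in the reported fit, so that 1 of the 5 reported calls was left), 0 between C2 and NC1 and 0 among the 3 stages, and the probes called were 1361, 1397 and 1295, with fewer arrays in the fit.

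The replicate numbers did not pair the samples (correlations of same-numbered deviations from -0.32 to 0.25). With the replicate block, 3 cathepsins were called between C2 and C1 (CTSF -1.10, adjusted p = 0.0168, and CTSL -1.04, adjusted p = 0.0231, were not), 0 probes between C1 and NC1, and CTSD between C2 and C1 was 0.0135.

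Leaving out 1 array at a time, the cathepsins called were 3 to 5 between C2 and C1, 3 to 4 between C2 and NC1, 0 between C1 and NC1 and 3 to 4 among the stages. The count of 3 between C2 and C1 came without C1 replicate 4 or 6 or C2 replicate 2 or 3. The probes called were 3358 to 4266, 3363 to 4153, 1 to 19 and 3429 to 4292. Between C1 and NC1, 8 probes were called as reported, and 25 with no filter, 239 with array weights, 77 with only the 2 stages compared, 2 with slide as a block, 0 with the first scan day alone and 22 with the second.

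The sign turned only for differences that were not called in the reported fit or under the alternative. For C2 minus C1 these were CTSA (-0.0611 with 75th percentile scaling, -0.12 with quantile normalization, -0.0334 with normexp, -0.22 on the second scan day), the dimmer CTSC probe (-0.0138 with 75th percentile scaling, -0.15 on the first scan day, -0.0428 with close C2 replicates averaged), CTSD (0.48 with array weights, 0.24 on the first scan day) and CTSL2 (0.0045 on the second scan day). For C2 minus NC1 they were CTSA (0.12 with normexp, 0.18 with array weights, 0.26 on the first scan day), the dimmer CTSC probe (0.0711, 0.19 and 0.27 in the same order), CTSD (-0.03 with 75th percentile scaling, -0.14 with quantile normalization, -0.42 on the second scan day, -0.0215 with close C2 replicates averaged), CTSH (-0.71) and CTSZ (-0.23) on the second scan day. For C1 minus NC1 they were CTSA (0.16 with normexp, 0.0252 on the first scan day), CTSC (0.42 on the dimmer and 0.11 on the brighter probe, first scan day), CTSF (-0.0942 on the second scan day), CTSL2 (0.24 with normexp, 0.0343 on the first scan day) and CTSZ (0.0104 with normexp). Leaving out 1 array, such differences between C2 and C1 ran from -0.0803 to 0.22 for CTSA and -0.31 to 0.20 for CTSD. Between C2 and NC1 they ran from -0.25 to 0.0412 for CTSA, -0.54 to 0.15 for the dimmer and -0.12 to 0.43 for the brighter CTSC probe, -0.18 to 0.33 for CTSD and -0.0786 to 1.105 for CTSH. Between C1 and NC1 they ran from -0.65 to 0.0356 for the dimmer CTSC probe, -0.0152 to 0.24 for CTSF and -0.11 to 0.0717 for CTSL2. The cause of these changes was not tested. With the close C2 replicates averaged, CTSS against NC1 had an adjusted p of 0.01195 (log2 difference 1.82), with fewer samples in the fit.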
